A study of Mus musculus with 6 samples.

Results

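The genes of the cytosolic ribosomal proteins were followed in M2c-polarized macrophages that lack or carry the soluble epoxide hydrolase (sEH). Genes annotated as protein coding were taken when their symbol began with Rpl or Rps and a digit, or was Rplp0, Rplp1, Rplp2 or Rpsa, and the Rps6k kinases were left out. This gave 86 of the 19309 genes counted. Of these, 77 encode proteins of the standard cytosolic ribosome, 46 of the large and 31 of the small subunit, and are called core genes below. The other 9 are paralogs or genes that share the symbol pattern (Rpl3l, Rpl7l1, Rpl22l1, Rpl36al, Rpl39l, Rps27l, Rps19bp1, Rpl9-ps6 and Rps18-ps5).

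Monocytes from the bone marrow of mice aged 8 to 10 weeks were differentiated for 7 days with 15 ng/mL of M-CSF and 15 ng/mL of GM-CSF. They were then given LPS (10 ng/mL) with IFN-γ (1 ng/mL), and TGF-β1 (10 ng/mL) was put on top for 48 h. The series description gives 24 h for the LPS and IFN-γ step, whereas the methods give a shorter time for it and also allow 24 h of TGF-β1. The sEH-/- cells came from 3 mice with a constitutive deletion of the enzyme in every tissue, so the progenitors in the marrow lacked it too, and the wild-type cells came from 3 mice. Each mouse gave 1 library, the labels do not give the sex of each mouse, and p-values below measure the spread between these 3 and 3 libraries.

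Nearly all ribosomal proteins are present once in each ribosome, and their mRNAs are among the most abundant and stable of a cell. Most of these mRNAs begin with a C followed by a run of pyrimidines, the terminal oligopyrimidine (TOP) motif, through which mTORC1 and Larp1 set how much of them is translated. A few of the proteins act outside the ribosome: Rpl5, Rpl11 and Rpl23 bind Mdm2, the ubiquitin ligase of p53, and Rpl13a holds back the translation of some inflammatory mRNAs in macrophages treated with interferon.

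Library totals lay between 4400197 and 6096440 counts. *Ephx2*, which encodes sEH, had 4, 2 and 1 counts (sEH-/-) and 26, 49 and 57 counts (wild-type), a log2 fold change of -4.05 ± 0.43 (SE, edgeR quasi-likelihood test, adjusted p = 0.0042). The 8 macrophage markers were all detected and summed to between 1853 and 2557 CPM (counts scaled to the library size). Their log2 fold changes were all above 0, from 0.07 to 0.45 (Fcgr1), and 0 had an adjusted p below 0.05. The genotypes did not overlap in CPM for 1 of them, Fcgr1 (12.5%, against 26.3% of all genes tested). Klrb1c, the 1 of 7 lymphocyte markers with a row in the table, reached 0.81 CPM at most. The 6 of 8 neutrophil markers with a row summed to between 28.2 and 31.9 CPM in the sEH-/- libraries and between 17.4 and 21.2 CPM in the wild-type libraries, most of it S100a8. Camp (10, 3 and 4 against 1, 1 and 1 counts), Ngp (4, 4 and 3 against 0, 3 and 1) and Elane (2, 3 and 1 against 0, 1 and 1) did not overlap between genotypes in CPM either. The counts of Camp, Ngp and Elane were too low to be tested, and 26.3% of all genes tested did not overlap. S100a8, the 1 neutrophil marker tested, was higher in every sEH-/- library than in every wild-type library. Its log2 fold change was 0.54 ± 0.14 (SE, edgeR quasi-likelihood test, adjusted p = 0.057). S100a9 did not exceed 3 counts. The 5 of 7 dendritic cell markers with a row summed to 27.0, 29.1 and 57.7 CPM (sEH-/-) and 42.2, 58.9 and 46.8 CPM (wild-type). All 3 of them that were tested had log2 fold changes below 0, from -0.98 (Zbtb46) to -0.09, and 0 had an adjusted p below 0.05. Stromal markers summed to 59.9 CPM in wild-type library 2 and to between 4.18 and 21.5 CPM in the others. The part of these cell types in the values below was not tested.

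No ribosomal protein gene was called different between the genotypes. Of the 86 genes, 85 had a mean of more than 5 counts and were tested, and 0 of them had an adjusted p below 0.05 together with a change of more than 1.5-fold in the edgeR quasi-likelihood test. Over all 13785 genes tested, 2.61% were called, 1.51% with higher and 1.1% with lower levels in sEH-/- cells. In bulk RNA, a different number of cells of a type and a different amount of RNA per cell cannot be told apart. Without the fold threshold the count among the ribosomal protein genes was still 0, against 4.01% of all genes (2.39% higher and 1.62% lower). At an unadjusted p below 0.05 there were 2 of 85 (2.35%), against 23.4% of all genes. DESeq2 and limma-voom also called 0 of them, with 0 and 2 genes at an unadjusted p below 0.05.

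The estimates were small and mostly on one side. The log2 fold change was above 0 for 72 genes and below 0 for 13, with a median of 0.09 and an interquartile range from 0.03 to 0.14, while the median over all genes tested was -0.0009. The core genes of the large subunit had a median of 0.10 and those of the small subunit a median of 0.08. The 95% interval lay wholly within 1.5-fold in either direction for 77 of the 85 genes (90.6%), against 61.0% of all genes tested. The exceptions were Rpl22l1, Rpl36al, Rpl39, Rpl39l, Rpl3l, Rpl9-ps6, Rps10 and Rps18-ps5, most of which had few counts. All these intervals are those of the deposited counts, which for most of these genes moved less than in proportion to the library total (below). Whether the same bounds hold for the mRNA was not tested.

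**Figure D1:**
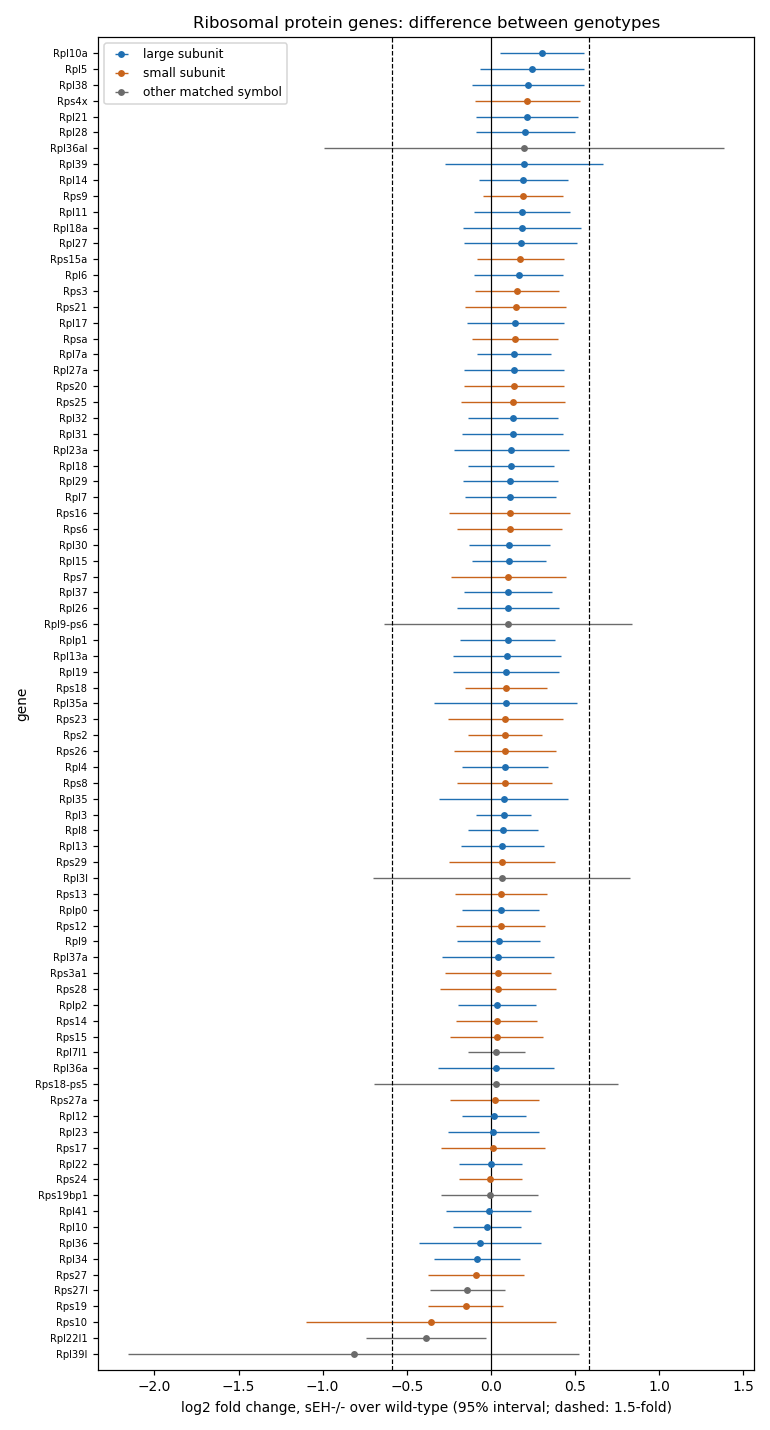
The log2 fold change of 83 of the 85 tested genes, sEH-/- over wild-type, with its 95% interval, ordered by size and coloured by subunit; the dashed lines mark 1.5-fold. The estimates run from -0.82 (Rpl39l) to 0.30 (Rpl10a), and only the intervals of Rpl10a and Rpl22l1 leave out 0.

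The genotypes did not overlap in CPM for 2 genes, 1 in each direction, whereas 26.3% of all genes tested did not overlap. Rpl10a, a large subunit protein, had 190, 174 and 133 counts (sEH-/-) and 128, 163 and 142 counts (wild-type). Scaled to library size this was 32.8 ± 2.15 against 26.7 ± 1.36 CPM (SD, n = 3 each), with every sEH-/- library above every wild-type library. The log2 fold change was 0.30 ± 0.11 (SE), with an interval from 0.05 to 0.55, and the adjusted p of 0.14 in the edgeR quasi-likelihood test missed the threshold. This was the smallest adjusted p among the 85 genes.

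Rpl22l1, the paralog of the large subunit protein Rpl22, had 80, 78 and 75 counts (sEH-/-) and 80, 135 and 118 counts (wild-type). This was 15.6 ± 1.86 against 20.2 ± 2.31 CPM (SD, n = 3 each), with every sEH-/- library lower, and a log2 fold change of -0.39 ± 0.16 (SE, edgeR quasi-likelihood test, adjusted p = 0.18). Rpl22 itself, with 476, 471 and 429 against 411, 560 and 525 counts, had a log2 fold change of -0.0012 ± 0.085. The Rpl22 interval from -0.19 to 0.19 lay above the Rpl22l1 estimate, but the difference between the paralogs was not tested.

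The sEH-/- libraries were split in their level of these genes. Ribosomal protein genes took 0.328%, 0.396% and 0.413% of all counts in the sEH-/- libraries 1, 2 and 3, and 0.369%, 0.347% and 0.371% in the wild-type libraries. The means were 0.379% ± 0.045 and 0.363% ± 0.013 (SD, n = 3 each), so the difference was smaller than the spread between sEH-/- libraries. The tested ribosomal protein genes had a median of 198 counts, against 242 over all genes tested. Duplicate reads and reads that map to several places had been removed, and whether these shares hold for the mRNA was not tested. Relative to the wild-type mean of each gene, the median gene stood at -0.15 in sEH-/- library 1, and at 0.16 and 0.24 in libraries 2 and 3 (log2 CPM), against 0.05, -0.06 and 0.01 in the wild-type libraries. Library 1 was thus the lowest of the 6 and libraries 2 and 3 the highest, on either side of the wild-type libraries.

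**Figure D2:**
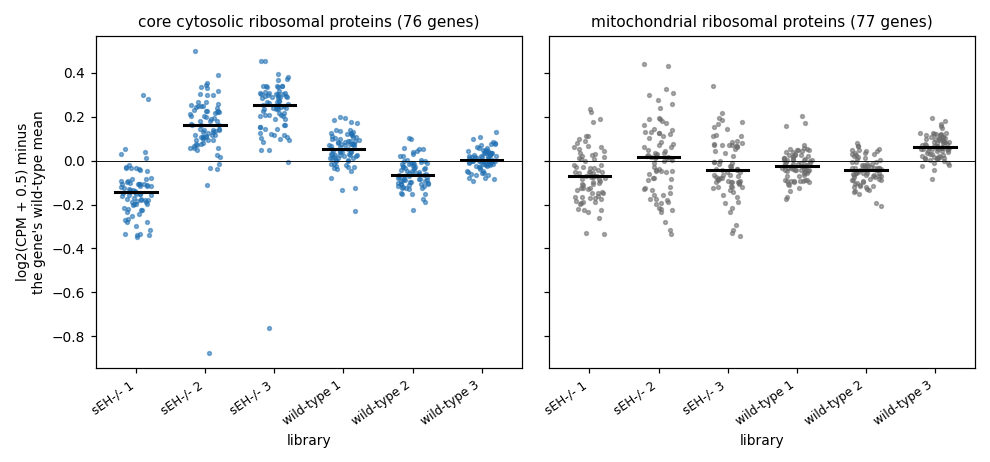
Difference of log2(CPM + 0.5) from the gene's wild-type mean in each library, for 76 core cytosolic genes (left) and 77 mitochondrial ribosomal protein genes (right); points are genes and bars are medians. The cytosolic genes sit together below 0 in sEH-/- library 1 and above 0 in sEH-/- libraries 2 and 3, and the points far below the others in those 2 libraries are Rps10.

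When sEH-/- library 1 was left out, the median log2 fold change was 0.21, 79 of 85 genes were above 0, and 30 (35.3%) had an unadjusted p below 0.05, beside 27.9% of the 13699 genes tested in that fit. Of these, Rps4x (log2 fold change 0.39, adjusted p = 0.034) and Rpl14 (0.33, adjusted p = 0.0499) passed the adjusted threshold of the edgeR quasi-likelihood test, as did 7.04% of all genes. With all 6 libraries, Rps4x, a small subunit protein encoded on the X chromosome, had 302, 361 and 346 counts against 278, 345 and 324. Its log2 fold change was then 0.22 ± 0.14 (SE) and its adjusted p 0.39. Without sEH-/- library 3 the median of all 85 genes was 0.01.

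In the deposited counts, the proportions of the ribosomal protein genes to each other varied little between libraries. The chi-square of their counts between 2 libraries, per degree of freedom, is near 1 where those proportions differ by no more than the sampling of reads. It lay between 0.445 and 1.44 for the 6 pairs of libraries of one genotype and between 0.727 and 1.15 for the 9 pairs that crossed genotypes. For 7803 other genes of like counts, from 19.5 to 523 on average, the ranges were 1.76 to 4.16 and 2.35 to 11.5. Mitochondrial ribosomal protein genes gave 0.5 to 1.04 and 0.788 to 2.02. These values are descriptions of the libraries, with no test attached. For the ribosomal protein genes the median over the pairs of one genotype was 0.717, less than the sampling of reads alone would give. The variance of the raw counts was also below their mean for 24.7% of these genes (below). Whether the proportions of the mRNAs vary as little was not tested.

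Raw counts of ribosomal protein genes moved less with the library total than those of other genes. The totals differed by 1.39-fold between the largest and the smallest library, and the summed counts of the 86 genes by 1.24-fold. Rplp1 gives the clearest example, with 264, 263 and 258 counts (sEH-/-) and 253, 264 and 273 counts (wild-type). The slope of the log2 count on the log2 library total within genotypes would be 1 for a gene counted in proportion. Its median was 0.46 over the 85 genes, with 78 of them under 1, against 1.14 over all genes tested and 1.04 over the mitochondrial ribosomal protein genes. The 8 macrophage markers were also low, with a median slope of 0.27. The variance of the raw counts over the 6 libraries was below their mean for 21 of 85 ribosomal protein genes (24.7%), against 6.26% of all genes tested.

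**Figure D3:**
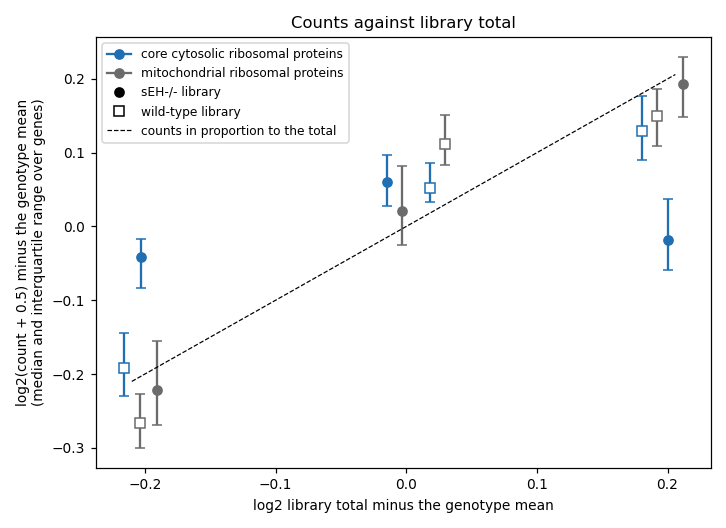
Log2(count + 0.5) of the core cytosolic and the mitochondrial ribosomal protein genes in each library against the log2 library total, both minus the mean of the genotype; markers are medians and bars interquartile ranges over genes. The mitochondrial genes lie near the dashed line of counts in proportion to the total, whereas the cytosolic genes lie well above it in the smallest and below it in the largest sEH-/- library.

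The library total thus moved with the result. The largest sEH-/- library (library 1) had the lowest share of ribosomal protein counts of that genotype and the smallest (library 3) the highest. With the library total (log scale) added to the fit, the median log2 fold change was 0.02, with 55 genes above and 30 below 0, and 0 genes passed. Duplicate reads, defined by position, had been removed by the authors. The counts of the 85 genes per exonic base were 0.105 at the median and reached 0.526 for Rplp1. Counts corrected as if each exonic base could hold at most 1 count gave a median of 0.10, beside 0.09 without the correction, and again 0 called genes. This correction let every base of all annotated exons hold a count. Reads that map to several places had been removed, however. The median core gene shares 92.4% of the short stretches of its coding sequence with another annotated gene (below). Fewer bases could therefore hold a count than the correction assumed, and the part of duplicate removal in these values was not tested.

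Levels of different genes can only be compared per length, and here they were taken as CPM per kilobase of all annotated exons in the wild-type libraries. Rplp1 and Rps15 stood highest at 98.5 and 93.5 CPM per kilobase, followed by Rpl4 (77.2), Rpl8 (72.3) and Rplp0 (67.4). Rplp1 and Rplp0 belong to the stalk that recruits translation factors, Rpl4 and Rpl8 lie in the large subunit, and Rps15 in the small subunit. In the sEH-/- libraries these 5 genes were at 106, 96.0, 82.0, 76.2 and 70.3, and none of them passed the test. The order depends on the length used and on how many reads could be placed at one site. Over the length of 1 coding transcript per gene, chosen as an alternative after seeing the data, Rpl22 stood highest at 194 CPM per kilobase, against 31.5 over all its exons, and Rplp1 was at rank 11. Rplp1 and Rplp0 share 60.8% and 60.4% of the 50-base stretches of their coding sequences with other genes, Rpl8 8.69%.

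By the same measure over all exons, the lowest tested genes were Rpl36al (0.998 CPM per kilobase), Rpl3l (1.26), Rpl39l (1.64) and Rps10 (3.41). Over 1 transcript Rps10 was at 15.8 and no longer among them. For Rpl36al, 100% of the short stretches of the coding sequence occur in other annotated genes. Another gene (Gm49383) overlaps 24.5% of its exons. Reads that map to several places or lie over several genes were not counted, so the Rpl36al counts do not give its mRNA level. Rpl3l is known from striated muscle and Rpl39l from the testis, and both are low counts here: 12, 13 and 8 against 8, 11 and 15 for Rpl3l, and 3, 3 and 5 against 11, 7 and 3 for Rpl39l. Rpl24 was the 1 gene left untested, with 5, 6 and 5 counts (sEH-/-) against 1, 5 and 6 counts (wild-type). The annotation lets another gene (Gm28037) overlap 47.0% of the exons of Rpl24, and reads over several genes were not counted, so these counts do not give the level of the Rpl24 mRNA.

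**Figure D4:**
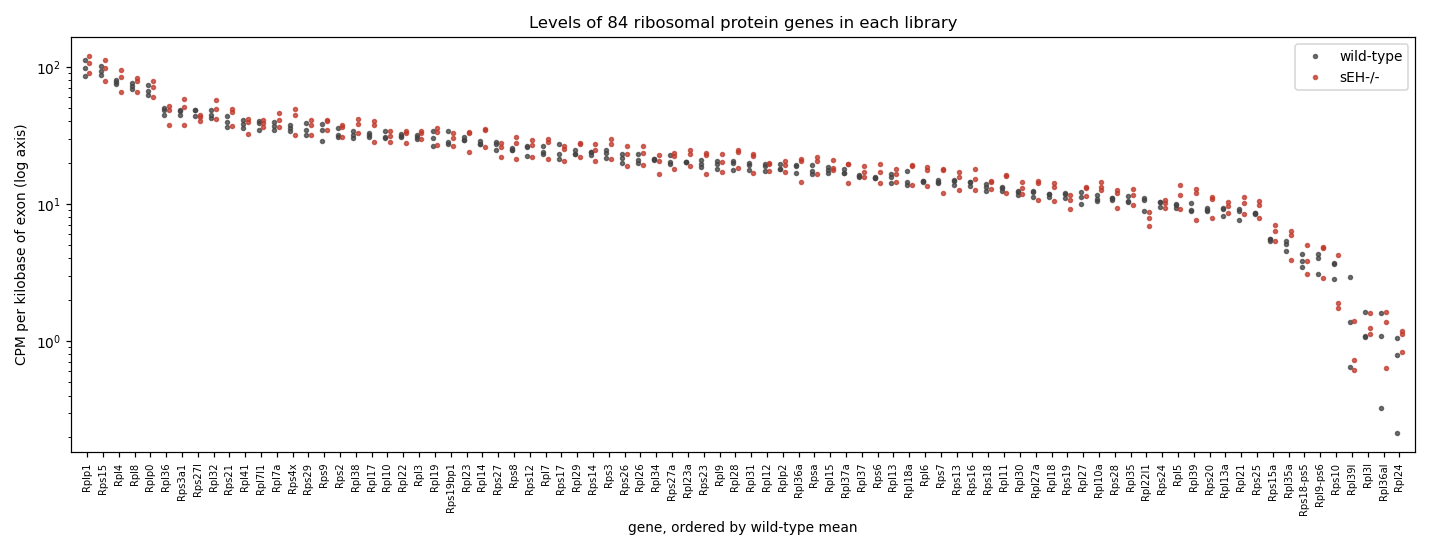
CPM per kilobase of exon (log axis) of 84 genes in each of the 3 wild-type (grey) and 3 sEH-/- (red) libraries, ordered by the wild-type mean. The libraries of both genotypes follow the same descent from Rplp1 to Rpl24, and Rps10 has 2 red points below its other 4 points.

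Rps10, a core protein of the small subunit, was the core gene with the largest variance of counts relative to its mean. It had 57, 20 and 19 counts (sEH-/-) and 30, 52 and 48 counts (wild-type). The libraries sEH-/- 2 and 3, in which nearly all other core genes were high, were thus the lowest for Rps10. Its log2 fold change was -0.35 ± 0.34 (SE, edgeR quasi-likelihood test, adjusted p = 0.58) with all libraries and -0.91 without sEH-/- library 1. A readthrough gene, RPS10-NUDT3, covers 20.6% of its exons.

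Ribosomal proteins of the p53 and Mdm2 arm did not pass the test. Rpl5 and Rpl11, which bind Mdm2 together with the small ribosomal RNA of the large subunit, had log2 fold changes of 0.24 ± 0.14 and 0.19 ± 0.13 (SE). Rpl5 had 210, 268 and 198 counts (sEH-/-) against 175, 227 and 218 counts (wild-type), and Rpl11 had 188, 212 and 189 against 159, 205 and 199. Their adjusted p-values in the edgeR quasi-likelihood test were 0.33 and 0.43. Rpl23, the other Mdm2-binding protein of the list, was at 0.01 ± 0.12.

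Rps27l is induced by p53, and its paralog Rps27 is the usual small subunit protein. Rps27l had 193, 174 and 156 counts (sEH-/-) against 179, 221 and 222 counts (wild-type), or 34.8 ± 1.60 against 38.3 ± 2.16 CPM (SD, n = 3 each). The log2 fold change was -0.14 ± 0.10 (SE, edgeR quasi-likelihood test, adjusted p = 0.44) and the libraries of the genotypes overlapped. Rps27, with 135, 135 and 125 against 129, 160 and 166 counts, was at -0.09 ± 0.13. Their order by level per length was not settled. It was 47.0 CPM per kilobase for Rps27l against 26.9 for Rps27 in wild-type cells over all annotated exons, but 76.8 against 81.2 over 1 coding transcript of each. All 50-base stretches of the Rps27 coding sequence occur in other genes, against 49.0% of those of Rps27l, and reads that map to several places had been removed. The 4 genes that share such stretches with Rps27l are all annotated pseudogenes, so Rps27 is not among them. The coding sequences of both paralogs are shown for how far they differ, with each base that differs in capitals:
Rps27: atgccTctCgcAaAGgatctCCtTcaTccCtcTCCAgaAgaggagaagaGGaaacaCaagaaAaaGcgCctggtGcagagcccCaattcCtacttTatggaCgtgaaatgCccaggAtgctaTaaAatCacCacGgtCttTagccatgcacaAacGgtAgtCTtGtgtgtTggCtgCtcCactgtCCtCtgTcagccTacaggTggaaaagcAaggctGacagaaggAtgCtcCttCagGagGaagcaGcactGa
Rps27l: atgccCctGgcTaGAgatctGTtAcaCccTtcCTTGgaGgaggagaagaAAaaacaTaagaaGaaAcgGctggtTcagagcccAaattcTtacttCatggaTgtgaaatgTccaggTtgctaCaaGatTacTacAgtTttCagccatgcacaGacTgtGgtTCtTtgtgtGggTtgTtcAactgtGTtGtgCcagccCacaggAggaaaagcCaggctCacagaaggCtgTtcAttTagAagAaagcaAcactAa
Both are 255 bases long and differ at 61 positions (76.1% identity), spread along the whole length. Among the genes of the p53 list, 0 of 4 (Trp53, Mdm2, Mdm4 and Cdkn1a) passed the adjusted threshold, and their log2 fold changes ran from -0.47 to 0.09. Mdm4, Cdkn1a and Mdm2 had an unadjusted p below 0.05, and every sEH-/- library was below every wild-type library for them (23.4% and 26.3% of all genes tested met these criteria), with log2 fold changes of -0.47, -0.28 and -0.17 and adjusted p-values of 0.052, 0.12 and 0.17 in the edgeR quasi-likelihood test.

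Members listed for other roles, some of them in immune cells, were also within their spread. Rpl13a had 106, 109 and 88 counts (sEH-/-) against 78, 120 and 110 counts (wild-type), a log2 fold change of 0.10 ± 0.14 (SE), with 35.4% of its exons overlapped by other genes. Rps3, a small subunit protein that also binds NF-κB, had 560, 604 and 571 against 506, 598 and 587 counts and a log2 fold change of 0.16 ± 0.11. Rps19, which is secreted as a dimer that attracts monocytes, was on the other side of 0, with 252, 250 and 234 against 251, 321 and 313 counts and a log2 fold change of -0.15 ± 0.10. Rps6, the substrate of S6 kinase, was at 0.11 ± 0.14, and Rpl38, known for the translation of Hox mRNAs, at 0.22 ± 0.15. The adjusted p-values of these 5 genes lay between 0.41 and 0.74 in the edgeR quasi-likelihood test. The stalk proteins Rplp0, Rplp1 and Rplp2 had log2 fold changes of 0.06 ± 0.10, 0.10 ± 0.13 and 0.04 ± 0.10.

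Of the other paralogs, Rpl7l1, a protein of ribosome assembly, was the best counted, with 746, 706 and 587 against 639, 752 and 753 counts and a log2 fold change of 0.03 ± 0.08 (SE). Rps19bp1, which binds Rps19 and is not a ribosomal protein, had 191, 176 and 123 against 135, 189 and 206 counts and was at -0.0072 ± 0.13. Rpl9-ps6 and Rps18-ps5 differ from the coding sequences of Rpl9 and Rps18 at 1 of 579 and 3 of 459 positions, so that few reads can be placed on one or the other. They had at most 19 and 15 counts in a library and are uncertain. Rpl36al, whose coding sequence is 87.9% identical to that of Rpl36a, had 5, 11 and 8 counts (sEH-/-) against 2, 9 and 12 counts (wild-type), while Rpl36a had 139, 170 and 152 against 142, 171 and 178 counts and a log2 fold change of 0.03 ± 0.16.

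The remaining core genes set aside for a known role lay close to 0 as well. Rpsa, which is also a laminin receptor, was at 0.14 ± 0.12 (log2 fold change ± SE), and Rps27a, made as a fusion with ubiquitin, at 0.02 ± 0.12. Rpl26, which binds the p53 mRNA, was at 0.10 ± 0.14. The parent genes of paralogs Rpl3, Rpl7 and Rpl10 and their namesake Rpl7a were at 0.08, 0.12, -0.02 and 0.14, and 0 of these 7 genes passed the test.

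Rpl39 and its paralog Rpl39l are the shortest such pair, and their coding sequences are shown because 23 of 156 bases (capitals) separate them:
Rpl39: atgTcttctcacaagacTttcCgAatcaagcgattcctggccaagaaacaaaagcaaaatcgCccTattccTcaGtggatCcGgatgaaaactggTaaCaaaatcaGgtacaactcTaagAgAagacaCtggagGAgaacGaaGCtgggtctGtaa
Rpl39l: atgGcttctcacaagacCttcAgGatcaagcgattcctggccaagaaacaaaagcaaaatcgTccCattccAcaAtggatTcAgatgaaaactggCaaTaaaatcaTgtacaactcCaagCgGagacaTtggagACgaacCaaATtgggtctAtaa
Rpl39 had 64, 85 and 80 counts (sEH-/-) against 59, 79 and 81 counts (wild-type), a log2 fold change of 0.20 ± 0.21 (SE). Per kilobase of exon, its level was 9.37 CPM in wild-type libraries, against the 1.64 of Rpl39l. The Rpl39l log2 fold change of -0.82 ± 0.61 rests on at most 11 counts in a library.

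Most core genes have processed pseudogenes, and reads that map to several places had been removed. Of the 77 core genes, 76 share at least 1 stretch of 50 bases of their coding sequence with an annotated pseudogene, and the median core gene shares 92.4% of such stretches with another annotated gene. Rpl7a shares with the most, 120 pseudogenes. The 10 core genes that share less than 50% of their stretches had a median of 0.254 counts per exonic base, and the other 67 a median of 0.0975. Over the 77 genes the rank correlation between the shared percentage and the counts per exonic base was -0.31, a description only, since all points come from the same 6 libraries. Both genotypes were counted on the same sequence. Of 121 ribosomal protein pseudogenes in the table, 27 had enough counts to be tested, with a median log2 fold change of 0.20, and 0 passed the adjusted threshold, against 4.01% of all genes.

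**Figure D5:**
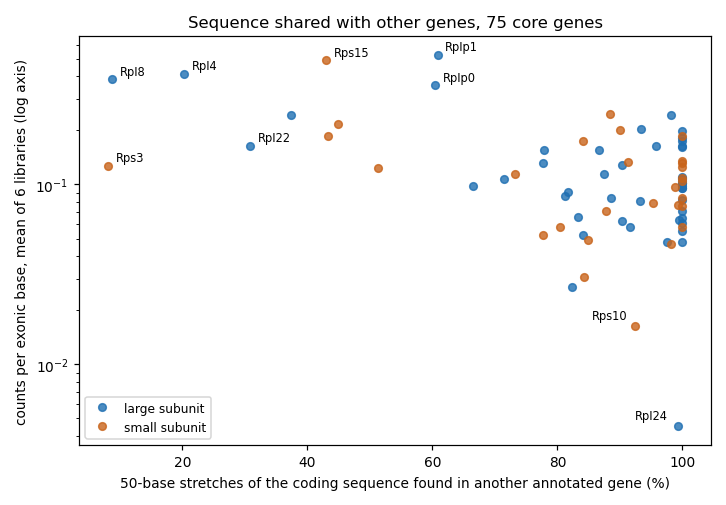
Counts per exonic base (mean of 6 libraries, log axis) of 75 core genes against the percentage of 50-base stretches of the coding sequence that occur in another annotated gene. Of the genes shown, Rps3, Rpl8 and Rpl4 share the least and are well counted, and Rps10 and Rpl24 lie lowest among the genes that share nearly all.

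The core genes also share sequence at their start sites. Promoters from RefSeq (GRCm38.p6, from 250 bases before to 50 after the start) matched 64 of the 86 genes and 57 of the core genes, with 67 promoters for the latter. Between 10 bases before and 15 after the start, on the strand of the gene, 20.9% of the core promoters held CTTTC and 7.46% held CTTTT, the letters with which many TOP mRNAs begin. Among all 32851 promoters the shares were 3.1% and 2.57%. The letters CCGGAA, the core of ETS factor sites such as that of Gabpa, were in 49.3% of the core promoters and 14.9% of all promoters, on either strand of the 300 bases. The start windows of 8 core genes show the TOP letters in capitals, in 30 bases from 15 before the start onwards:
Rps6, chr4:86857353-86857382, minus strand: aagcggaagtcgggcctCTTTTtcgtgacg
Rps10, chr17:27635230-27635259, minus strand: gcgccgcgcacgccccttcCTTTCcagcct
Rps27, chr3:90213634-90213663, minus strand: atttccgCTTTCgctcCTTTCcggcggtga
Rpl15, chr14:18270972-18271001, minus strand: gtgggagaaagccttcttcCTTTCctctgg
Rpl28, chr7:4792950-4792979, plus strand: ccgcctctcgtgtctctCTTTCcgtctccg
Rpl35, chr2:39005117-39005146, minus strand: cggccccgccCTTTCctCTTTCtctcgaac
Rpl38, chr11:114668565-114668594, plus strand: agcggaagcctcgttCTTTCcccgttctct
Rplp2, chr7:141447636-141447665, plus strand: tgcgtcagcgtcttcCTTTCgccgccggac
The matches are descriptions of the sequence, and promoters of core genes without these letters say nothing about their translation. Translation was not measured here. Of the genes shown, Rpl28 and Rpl38 had log2 fold changes of 0.20 and 0.22, Rps27 one of -0.09 and Rps10 one of -0.35, and 0 of the 8 passed the test.

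The genes around the ribosome were given from lists. Mitochondrial ribosomal protein genes had 0 of 77 past the adjusted p, a median log2 fold change of -0.03, and 28 genes above and 49 below 0. Translation factors and other TOP mRNAs, such as Eef1a1, Eef2 and Tpt1, had 0 of 17 past it and a median of 0.08. Their depth slope was 0.50 at the median, beside 0.46 for the ribosomal protein genes. Fau and Rack1, whose products are also parts of the cytosolic ribosome, had log2 fold changes of 0.11 and 0.13 and did not pass.

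Assembly factors and regulators gave 3 genes past the adjusted p, at most 1 in a list. This was 1.79% of the biogenesis factors, 9.09% of the quality control genes and 4.5% of the regulators. It was 0% of the RNA polymerase I list, against 4.01% of all genes tested. Of 56 ribosome biogenesis factors 1 was lower, Gnl3 (nucleostemin), with 469, 332 and 318 counts (sEH-/-) against 401, 610 and 545 counts (wild-type), a log2 fold change of -0.37 ± 0.09 (SE, edgeR quasi-likelihood test, adjusted p = 0.047). Of 11 ribosome quality control genes 1 was lower, Hbs1l, which rescues stalled ribosomes with Pelo, with 418, 328 and 307 against 367, 604 and 543 counts and -0.41 ± 0.09 (adjusted p = 0.041). Neither change reached 1.5-fold, although the genotypes did not overlap in CPM for either gene. The RNA polymerase I list, which makes the ribosomal RNA precursor, had 0 of 15 past it, with Rrn3 at -0.33 and Ubtf at 0.35.

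Of 22 regulators of ribosomal protein synthesis, Myc was the 1 gene called, and it was higher in sEH-/- cells. Myc, a transcription factor that acts on many genes of ribosome production, had 117, 79 and 53 counts (sEH-/-) and 31, 24 and 41 counts (wild-type). The groups did not overlap, and the log2 fold change was 1.44 ± 0.27 (SE, edgeR quasi-likelihood test, adjusted p = 0.027). The library with the most Myc counts, sEH-/- 1, was the one with the lowest share of ribosomal protein counts. That library also had the largest total of its genotype, and a link between Myc and the ribosomal protein genes was not tested. The other regulators of the list, among them Mtor, Rptor and Larp1, did not pass the adjusted threshold.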

How the data were processed

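Per the methods and the submitters' processing notes, the authors trimmed reads (Trimmomatic), aligned them to mm10 (STAR), discarded duplicates (Picard) as well as multi-mapping, ribosomal and mitochondrial reads, and used featureCounts for strand-specific exon counts that leave out reads over several genes. Versions differ between these sources. The deposited values are raw counts per gene, not normalized, with library totals of 4400197 to 6096440.

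Tests used edgeR 4.0.16 in R 4.3.3 (TMM, glmQLFit and glmQLFTest, two-sided, no covariates, Benjamini-Hochberg over 13785 genes with a mean above 5 counts). A gene was called at an adjusted p below 0.05 and a log2 fold change beyond 0.585 in either direction (1.5-fold). The standard error is the fold change over the square root of F. CPM use TMM-scaled totals. The steps were tested on simulated data. Alternatives were DESeq2 1.42.0, limma 3.58.1 (voom), RLE or no scaling factors, TMM without the members, other filters, thinning to the smallest library, a ceiling of 1 count per exonic base, the library total as covariate, a replicate block and leaving out each library. Exon lengths, overlaps and coding sequences came from GENCODE M21 (19286 of 19309 identifiers matched), and shared stretches were searched over all its transcripts. Figures were drawn with matplotlib.

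Named genes were the members past the adjusted p, the 6 highest (5 given) and 4 lowest per kilobase, members with known roles or paralogs, genes past the adjusted p from each list, and Ephx2. Rps4x and Rpl14 without a library, Rps10, Rpl24, Rpl10a, the motif examples and list genes that did not pass were named after their values were seen. Members and lists were chosen with earlier results of these data known. Values of some genes are not reported here by name or in plots that show gene by gene, although they enter the counts and medians.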

Additional observations from a re-analysis of the deposited data

How the results depend on the processing

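The number of ribosomal protein genes called was 0 in each direction under all 18 alternatives. The number past the adjusted p at any fold was 0 under the 12 alternatives that kept all libraries, and leaving out 1 library in turn gave 0 to 2 genes with higher levels, the 2 being those without sEH-/- replicate 1. Leaving out 1 library moved the median log2 fold change between 0.01 and 0.21. Over all genes tested, 360 were called, 473 by DESeq2, 307 by limma-voom, 514 without a filter on low counts and 171 with the library total as covariate. The count was 6 to 625 when 1 library was left out, with 6 without wild-type replicate 3, 25 without wild-type replicate 2, 96 without sEH-/- replicate 2, 518 without sEH-/- replicate 1, 570 without sEH-/- replicate 3 and 625 without wild-type replicate 1.

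Samples with the same replicate number did not deviate together (correlations of -0.08, -0.26 and -0.04), so the numbers were not taken as pairs. With the replicate block, 0 ribosomal protein genes were called, their median log2 fold change was 0.09 and their smallest adjusted p was 0.30, while 234 genes were called over all genes. Members with few counts (Rpl36al, Rpl39l, Rpl3l, Rpl9-ps6 and Rps18-ps5) have intervals wider than 1.5-fold, so a change of that size was not detectable at this depth. Levels per kilobase depend on the length taken, as given beside them.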
